A study of Mus musculus with 7 samples.

Results

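miR-146a, miR-146b and miR-155 are microRNAs of the inflammatory response, and their mature forms were measured here by real-time PCR in the edge of mouse skin wounds. They were chosen by assay name, ignoring the species prefix, and the rule found 3 of the 306 miRNA assays on the plate, with no further assay named miR-146. All tissue came from C57Bl6 mice on day 3 after wounding, with 4 samples from non-ischemic wounds and 3 from ischemic wounds. The ischemic wounds lay in a bipedicle flap, a strip of skin that stays attached at its ends only, so that less blood reaches its middle. The series addressed how ischemia changes the miRNAs of the wound edge. No allele, drug, sex or age is named in the labels, and nothing says whether the samples of a group came from separate animals, so that p-values here cover no more than the variation among these samples, part of which may be technical.

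A microRNA is a short RNA that guides Argonaute to messenger RNAs, mainly through its seed, the bases near its 5′ end, and lowers their translation and stability. miR-146a and miR-155 are both transcribed in response to NF-kB, the transcription factor that Toll-like receptors and cytokine receptors activate. The miR-146 pair acts as a brake, since it targets the adaptor proteins TRAF6 and IRAK1 upstream of NF-kB. miR-155 tends to act the other way, since it targets SOCS1 and the phosphatase SHIP1, which dampen cytokine signalling in macrophages and lymphocytes. Leukocytes that enter a wound express both kinds, and resident skin cells express miR-146a as well.

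The mature sequences show how alike the pair is, and how different miR-155 is. They are the mouse sequences of RefSeq on GRCm38.p6, printed from the 5′ end with the seed, bases 2 to 8, in capitals.
miR-146a: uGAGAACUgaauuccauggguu
miR-146b: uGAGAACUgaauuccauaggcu
miR-155: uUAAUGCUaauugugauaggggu
miR-146a and miR-146b carried the same seed and were identical at 20 of 22 bases. Counted from the 5′ end of miR-146a, the substitutions towards miR-146b were G18A and U21C, both outside the seed. Among the 216 miRNA assays on the plate that could be matched by name to a mature mouse sequence, no other assay carried the seed of the miR-146 pair, and none besides miR-155 carried its seed. The assays of the miR-146 pair have the human prefix and that of miR-155 the mouse prefix, and the primer and probe sequences were not used here. How far each assay of the pair also detects the other miRNA was therefore not tested, which bears on each value that compares them.

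The 3 miRNAs come from separate loci. Mature miR-146a lies at chr11:43374435-43374456 on the minus strand, in the gene Mir146, whose hairpin overlaps no other gene of the annotation table. Mature miR-146b lies at chr19:46342790-46342811 on the plus strand, in Mir146b, and its hairpin falls within the bounds of the long non-coding RNA gene Gm36493 (chr19:46338760-46344131). Mature miR-155 lies at chr16:84714143-84714165 on the plus strand, in Mir155, within the bounds of its host Mir155hg (chr16:84713023-84715245), which is annotated as a long non-coding RNA. Whether exons or introns of these genes hold the hairpins was not looked up, since the table gives gene bounds only.

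All 3 miRNAs were detected in every sample, where detection is a threshold cycle (Ct, the PCR cycle at which product is seen) below 35. Between 91 and 106 miRNAs were detected per sample, and the 103 detected in 3 or more samples were tested. Levels are given as the Ct of 5S rRNA, the reference RNA of the authors, minus the Ct of the assay, a log2 scale as long as product doubles per cycle. Ischemic sample 3 was unlike the others. Its correlation with the other 6 samples over the 76 miRNAs detected in all samples was 0.756 to 0.830, against 0.908 to 0.977 among those 6, where miRNAs are not independent replicates. The differences of the 3 miRNAs are therefore also given without it.

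miR-146a was among the more abundant miRNAs of the wound edge, and each ischemic sample had less of it than any non-ischemic sample. Its Ct was 28.9, 28.9, 28.2 and 28.9 in non-ischemic samples 1 to 4, and 29.4, 29.0 and 29.7 in ischemic samples 1 to 3. By Ct it ranked 8th in the non-ischemic and 12th in the ischemic group mean among the 306 miRNAs, a ranking that assumes equal efficiency of the assays. Relative to 5S rRNA, miR-146a amounted to 52.7, 45.8, 82.3 and 58.9 parts in 1000000 in non-ischemic samples 1 to 4, and to 34.3, 42.1 and 27.6 in ischemic samples 1 to 3. Non-ischemic sample 3 was the highest and ischemic sample 3 the lowest, and the groups were separated by a narrow gap of 0.12 log2 units between non-ischemic sample 2 and ischemic sample 2. Such a separation, with ischemic samples lower, was found for 13 of the 103 tested miRNAs (12.6%), miR-146a and miR-146b among them.

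miR-146b, the near copy with the same seed, followed the same division at a lower level. Its Ct was 31.2, 31.4, 31.1 and 30.8 in non-ischemic samples 1 to 4, and 31.9, 31.7 and 32.1 in ischemic samples 1 to 3. Relative to 5S rRNA this was 10.4, 8.02, 11.1 and 16.0 parts in 1000000 in the non-ischemic samples, and 6.19, 6.55 and 5.14 in the ischemic ones. The gap between the groups was 0.29 log2 units, and the ischemic samples lay close together, with an SD of 0.18 log2 units against 0.41 in the non-ischemic group. That ischemic SD was the 7th smallest among the 76 miRNAs detected in all samples, whose median SD was 0.73 in the ischemic and 0.40 in the non-ischemic group.

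miR-155 was the least abundant of the 3 and split the ischemic samples. Its Ct was 32.4, 32.9, 32.4 and 32.3 in non-ischemic samples 1 to 4, and 31.96, 32.1 and 34.1 in ischemic samples 1 to 3. Relative to 5S rRNA this was 4.63, 2.83, 4.52 and 5.44 parts in 1000000 in the non-ischemic samples, and 5.82, 4.95 and 1.27 in the ischemic ones. Ischemic sample 1 was the highest of all 7 samples and ischemic sample 3 the lowest, with a Ct close to the detection limit. On the log2 scale ischemic samples 1 and 2 lay 0.46 and 0.22 above the non-ischemic mean, whereas ischemic sample 3 was at -1.74 from it, or -4.28 in units of the non-ischemic SD.

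**Figure D1:**
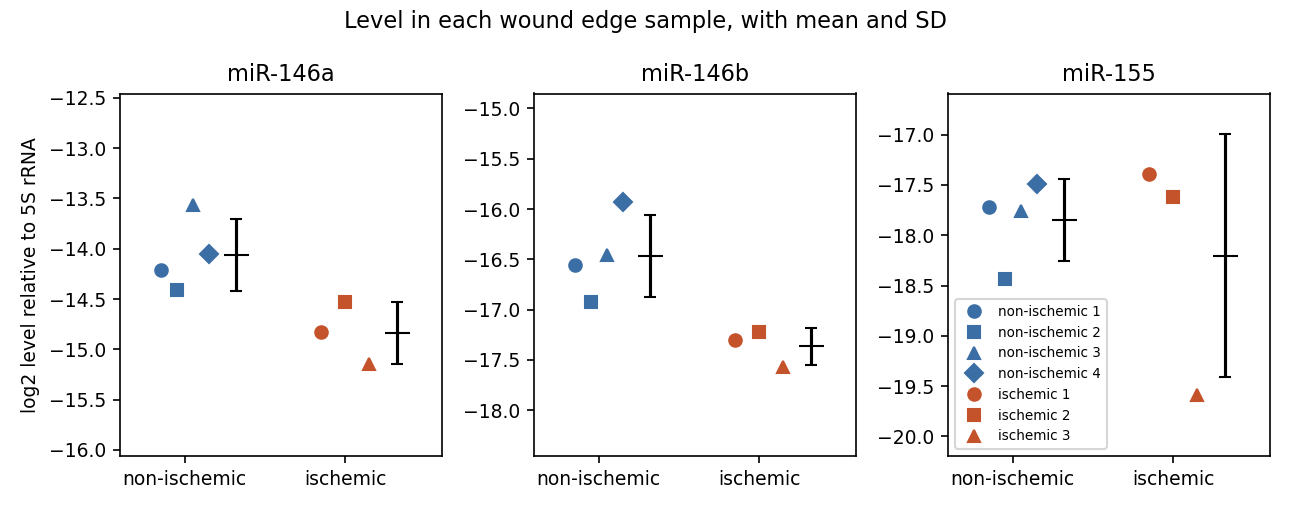
Level of each miRNA relative to 5S rRNA (log2, vertical axis) in the 4 non-ischemic and 3 ischemic samples, with 1 point per sample and the group mean ± SD in black. The ischemic points of miR-146a and miR-146b lie below all non-ischemic points, as for 13 of the 103 tested miRNAs (12.6%). Those of miR-155 lie on both sides of the non-ischemic points.

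Lower mean levels of the miR-146 pair in the ischemic wound edge did not pass the test over all miRNAs. The log2 mean of miR-146a was -14.06 ± 0.36 (SD, n = 4) without and -14.84 ± 0.31 (n = 3) with ischemia. Its difference was -0.78 ± 0.37 (SE), or 1.71-fold lower, with a 95% interval of -1.61 to 0.06 and an adjusted p of 0.321 in limma. The mean of miR-146b was -16.47 ± 0.41 (SD, n = 4) without and -17.36 ± 0.18 (n = 3) with ischemia. Its difference was -0.90 ± 0.37 (SE), or 1.86-fold lower, with an interval of -1.73 to -0.06, an unadjusted p of 0.0385 and an adjusted p of 0.219 in limma. These are bulk samples, in which fewer cells that express a miRNA and less of it per cell cannot be told apart.

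For miR-155 the groups overlapped and the interval reached to both sides of 0. Its mean was -17.85 ± 0.41 (SD, n = 4) without and -18.20 ± 1.21 (n = 3) with ischemia. The difference of -0.35 ± 0.57 (SE) had an interval of -1.65 to 0.94 and an adjusted p of 0.799 in limma, so that changes between 3.14-fold lower and 1.92-fold higher lay within it. Without ischemic sample 3 the difference of miR-155 was 0.34 ± 0.39 (adjusted p = 0.671 in limma). That of miR-146a was then -0.62 ± 0.38 (adjusted p = 0.433 in limma) and that of miR-146b -0.79 ± 0.38 (0.257). The direction of the pair could not change, since its groups did not overlap. In the comparison without ischemic sample 3, 6 of 102 miRNAs passed as lower (5.88%) and 0 as higher (0%), none of them among the 3.

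The place of the 3 miRNAs among all those measured is needed to read these values. In limma 0 of the 103 tested miRNAs passed an adjusted p of 0.05 as lower in ischemic samples (0%) and 0 as higher (0%), with 19 at an unadjusted p under 0.05. At that unadjusted level 14 were lower (13.6%), miR-146b among them, and 5 were higher (4.85%). Groups that did not overlap, with ischemic samples lower, were found for 13 of the 103 (12.6%), which include both miR-146a and miR-146b. The median difference of all tested miRNAs was -0.35, and 76.7% of them had a lower ischemic mean. miR-155 was itself the miRNA at that median, ranked 52nd from the lowest, and miR-146b and miR-146a ranked 23rd and 28th, at 0.54 and 0.42 log2 units below the median.

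**Figure D2:**
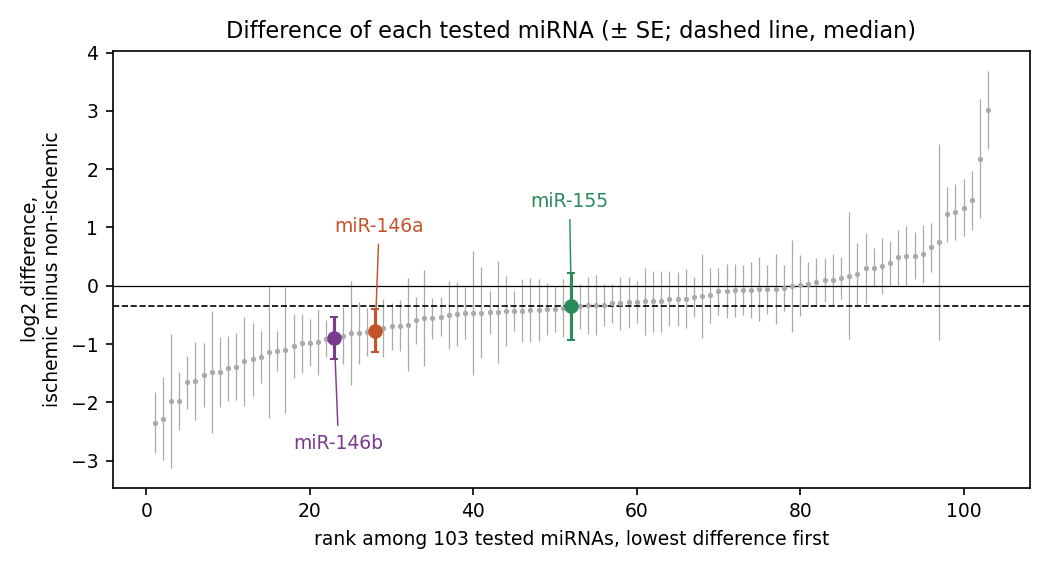
Log2 difference of ischemic minus non-ischemic samples (vertical axis, ± SE from limma) for the 103 tested miRNAs in rank order, with the median of -0.35 as a dashed line. miR-146b and miR-146a lie among the lower ranks, 23rd and 28th, and miR-155 lies on the median.

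How far the pair lay below the non-ischemic level depended on the reference. miR-146b was lower with no overlap between groups under each normalization tried: the difference was -1.05 against snoRNA, -1.11 against 18S, -0.77 on raw Ct with no reference, -0.56 after global mean, -0.54 after global median and -0.44 after quantile normalization. miR-146a was at -0.93, -0.99, -0.65, -0.44, -0.42 and -0.78 in the same order, and its groups overlapped against snoRNA, with or without snoRNA202, and after global mean and global median normalization. After global mean normalization, 5 of the 103 miRNAs (4.85%) were lower without overlap, miR-146b among them. That share was 12.6% against 5S rRNA and was not counted under the other normalizations. miR-155 came to -0.02 after global mean normalization and turned to 0.00 and 0.13 after global median and quantile normalization. The mean Ct of the reference RNAs differed between ischemic and non-ischemic samples by -0.12 cycles for 5S rRNA and by -0.34 for 18S. Of the snoRNA assays detected in all samples, the SYBR assays of snoRNA142 and snoRNA251 were at -0.13 and -0.19, snoRNA234 differed by 0.24 and snoRNA202 by -1.03. snoRNA202 had a Ct of 31.96 in non-ischemic sample 2 against 27.7 to 28.4 elsewhere, which is why snoRNA normalization is also given without it.

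**Figure D3:**
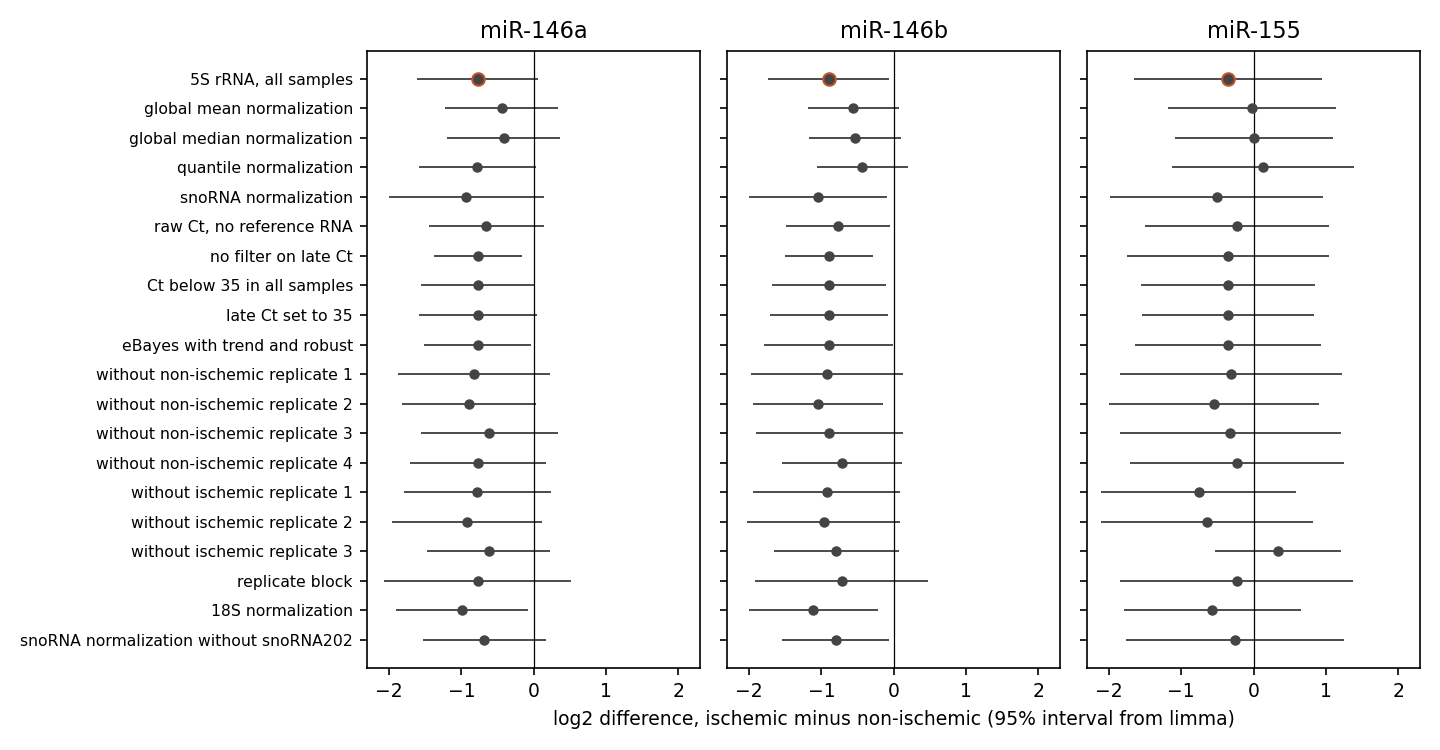
Log2 difference of ischemic minus non-ischemic samples (horizontal axis, with the 95% interval from limma) for each miRNA against 5S rRNA with all samples, in the top line, and under each alternative. All values of miR-146a and miR-146b are below 0, while miR-155 turns above 0 after global median and quantile normalization and without ischemic sample 3. For miR-146a and miR-146b only a change of normalization could have moved the value above 0.

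The authors' deposited table of group means, which averages linear rather than log2 values, gave the same order. There the fold of ischemic over non-ischemic was 0.524 for miR-146b, 0.579 for miR-146a and 0.921 for miR-155. In the authors' deposited table miR-146b ranked 35th and miR-146a 43rd from the lowest fold among 306 miRNAs, and miR-155 ranked 221st. Of these 306, 188 were detected in no sample, so that such ranks rest largely on undetected assays. Among the 103 tested miRNAs, miR-155 ranked 52nd from the lowest log2 difference. The linear mean weights the high samples more, and for miR-155 it lies nearer to 1 than the fold of 0.782 from log2 means.

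Ratios between the miRNAs within a sample do not depend on any reference RNA, since they are differences between raw Ct values, and 3 such ratios were compared. miR-146a exceeded miR-146b by 5.07, 5.72, 7.41 and 3.68 times in the non-ischemic samples and by 5.54, 6.44 and 5.37 times in the ischemic ones, if the assays are equally efficient. The ischemic values thus lay within the non-ischemic range. The log2 ratio was 2.41 ± 0.42 (SD, n = 4) and 2.53 ± 0.14 (n = 3), a difference of 0.12 ± 0.22 (SE, exact permutation p = 0.686, two-sided), so that no change in the ratio of the 2 assays was detectable with these samples. The part of cross-detection between these assays in the ratio was not tested.

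The ratios of the pair to miR-155 divided the ischemic samples. miR-146b exceeded miR-155 by 2.24, 2.84, 2.46 and 2.94 times in the 4 non-ischemic samples, but by 1.06, 1.32 and 4.06 times in ischemic samples 1 to 3. Ischemic samples 1 and 2 therefore lay below the whole non-ischemic range and ischemic sample 3 above it. For miR-146a over miR-155 the values were 11.4, 16.2, 18.2 and 10.8 in the non-ischemic and 5.89, 8.52 and 21.8 in the ischemic samples, with the same division.

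Over all 7 samples neither ratio to miR-155 differed beyond the spread between samples. The log2 difference was -0.54 ± 0.61 (SE, exact permutation p = 0.314) for miR-146b over miR-155 and -0.42 ± 0.59 (exact permutation p = 0.514) for miR-146a over miR-155, both two-sided and without adjustment over the 3 ratios. The smallest p that the 35 splits of 7 samples allow is 0.0286. Without ischemic sample 3 the differences were -1.13 and -0.96, and the exact permutation test gave 0.0667 for both, which is the lowest p that 2 against 4 samples can reach. Without ischemic sample 1 they shrank to -0.17 and -0.02 (exact permutation p = 0.667 and 1), and without ischemic sample 2 to -0.33 and -0.28 (0.667 and 0.733).

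**Figure D4:**
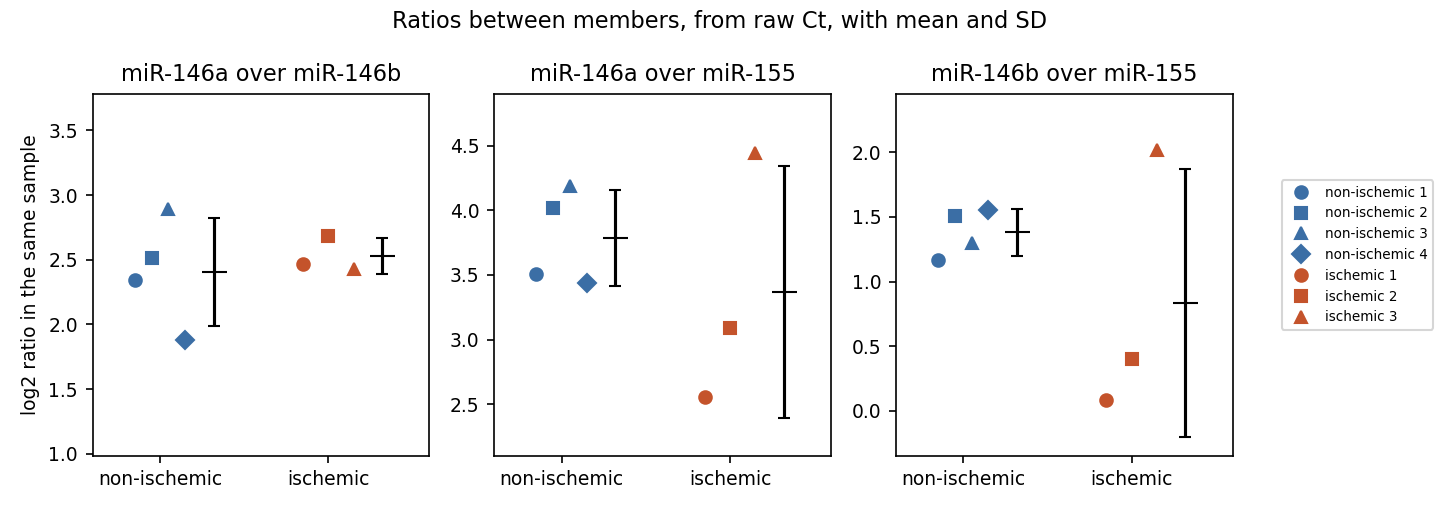
Log2 ratio of each pair of miRNAs within a sample, from raw Ct (vertical axis), in the 4 non-ischemic and 3 ischemic samples, with the mean ± SD in black. In both ratios to miR-155, ischemic samples 1 and 2 lie below and ischemic sample 3 above every non-ischemic sample, while the ratio of miR-146a to miR-146b stays within the non-ischemic range.

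The leukocyte miRNAs miR-223, miR-142-3p and miR-142-5p were low in ischemic sample 3, as were miR-146a, miR-146b and miR-155. The mean of miR-223, a myeloid miRNA, and of miR-142-3p and miR-142-5p, which mark leukocytes in general, lay within -0.73 to 0.72 log2 units of its own mean in the non-ischemic samples. It was 0.25 and 0.38 above that mean in ischemic samples 1 and 2, and 4.36 below it in ischemic sample 3, where miR-142-3p and miR-142-5p had Ct values of 35.05 and 36.6. In that sample miR-146a and miR-146b lay 1.08 and 1.10 below their non-ischemic means and miR-155 was at -1.74, each a smaller deviation than that of the leukocyte miRNAs. The median deviation of all 103 tested miRNAs there was -0.53.

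Set against the leukocyte miRNAs of the same sample, the miR-146 pair lay low in ischemic samples 1 and 2 and high in ischemic sample 3. The log2 level of miR-146b minus the leukocyte mean deviated from the non-ischemic mean by -1.09, -1.13 and 3.26 in ischemic samples 1 to 3, against -0.31 to 0.74 in the non-ischemic samples. The same quantity for miR-146a was -1.02, -0.86 and 3.28, against -0.71 to 1.23. For miR-155 it was 0.20, -0.16 and 2.62, against -0.43 to 0.83, so that ischemic samples 1 and 2 lay within the non-ischemic range and ischemic sample 3 above it. These values are a description with no test.

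Markers of other cells also differed between the ischemic samples, between the groups, or both. The mean of the 4 muscle miRNAs was 0.21, 1.11 and 1.96 above its non-ischemic mean in ischemic samples 1 to 3. The mean of the 5 keratinocyte miRNAs was at -1.03, -1.17 and -0.37 from its own. Among the muscle members, miR-206 was at -0.63 in ischemic sample 1, against 0.32, 0.66 and 0.49 for miR-1, miR-133a and miR-133b. In ischemic sample 3 it was at 0.64, against 2.48, 2.48 and 2.23 in the same order. In ischemic sample 2 miR-206 lay within the range of the other muscle members. The keratinocyte members differed among themselves in ischemic samples 1 and 2, with miR-203 at -1.93 and -2.24 and miR-200b at -2.18 and -2.55, but miR-205 at -0.03 and 0.18 and miR-200c at 0.02 and -0.55. Non-ischemic samples ran from -0.20 to 0.26 and from -0.61 to 0.63 on these lists. The lymphocyte pair miR-150 and miR-342 lay at -1.20, -0.18 and -0.58, against -0.38 to 0.14, and in ischemic sample 3 miR-150 was at 0.12 and miR-342 at -1.28. The erythroid pair miR-451 and miR-486 lay at 2.97, 2.23 and 2.58, against -1.31 to 1.08, but miR-451 was undetected in all 4 non-ischemic samples (Ct 35.5 to 36.7) and miR-486 in 2 of them, so that the sizes are uncertain. The level of miR-126, of endothelium, lay at -0.91, -0.08 and -0.37, against -0.38 to 0.22. Each list had all of its members tested. The part of cell makeup in the levels of the miR-146 pair and miR-155 was not tested.

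**Figure D5:**
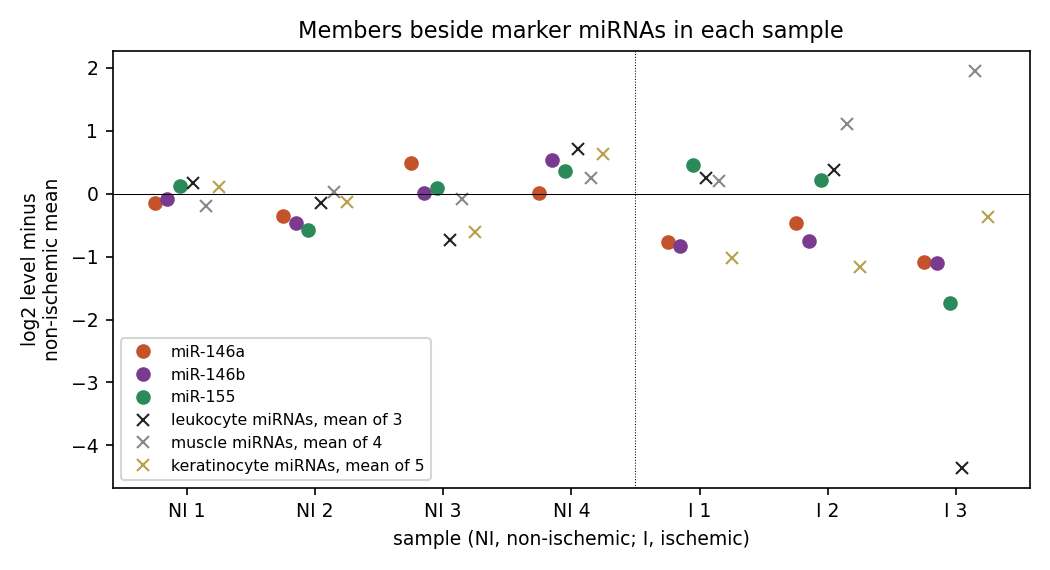
Log2 level minus the non-ischemic mean (vertical axis) in each sample for the 3 miRNAs (circles) and for the means of leukocyte, muscle and keratinocyte miRNAs (crosses). In ischemic sample 3 (I 3) the leukocyte mean is at -4.36 and the muscle mean at 1.96, with the 3 miRNAs between -1.08 and -1.74.

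Other miRNAs linked to NF-kB or Toll-like receptor signalling held no call. Of 12 such miRNAs, 11 were on the plate and 7 were tested. In limma 0 of the 7 passed an adjusted p of 0.05, in either direction, as did 0 of all 103 tested miRNAs (0%). A lower ischemic mean was found for 5 of 7, with a median difference of -0.08, beside 76.7% and -0.35 over all tested miRNAs. After global mean normalization 2 of 7 were lower, beside 51.5% of all tested miRNAs.

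Among these, miR-223 and miR-21 had the smallest p and depended on ischemic sample 3. miR-223, which restrains neutrophil activation, was at -1.48 ± 1.04 (SE, adjusted p = 0.515 in limma) and at 0.07 without ischemic sample 3. miR-21, which is induced by Toll-like receptor signalling and in wounds, was at -0.46 ± 0.77 (adjusted p = 0.811 in limma) and at 0.57 without that sample. The next by p were miR-181b at -0.09 ± 0.46 and let-7i, which targets the receptor TLR4 in human bile duct cells, at -0.08 ± 0.43, both with an adjusted p of 0.947 in limma. miR-9 and miR-132, both induced by bacterial lipopolysaccharide in human monocytes, had a Ct of 40 in all 7 samples, which stands where no product was seen.

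The miRNAs whose pattern over the 7 samples was most like that of each member were found by the root mean square difference in log2 level after each miRNA's own mean was subtracted. This measure does not depend on the reference RNA, and 75 other miRNAs detected in all samples were compared. Nearest to miR-146a were miR-218 (0.23 log2 units), miR-191 (0.27) and miR-146b (0.29), where the median over all 75 was 0.64. Nearest to miR-146b were miR-191 (0.25), miR-29a (0.27) and miR-26b (0.28), with miR-146a in the fourth place and a median of 0.61. The assays of the near-identical pair were thus among each other's closest on the plate, and cross-detection was not tested. Nearest to miR-155 were miR-20a (0.18), miR-16 (0.22) and miR-19b (0.24), all of them lowest in ischemic sample 3. From miR-155 the median over all 75 was 0.83, and miR-146a and miR-146b stood 23rd and 24th, at 0.61 and 0.63.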

How the data were processed

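Mature miRNAs were measured once in each of 7 wound edge samples, grouped by their titles. Per the labels, 500 ng of RNA was reverse transcribed with pooled looped primers and amplified on a 7900HT instrument in plates of 384 wells, with Ct software not given in the sources used here. Raw Ct values were deposited by the authors, with 40 where no product was seen. They also deposited log2 values, per the file headers a delta Ct, which equal the Ct of 5S rRNA minus that of the assay within 0.0001 cycles for 315 of 316 assays. The exception was 18S, with the opposite sign. The deposited linear ratio to 5S rRNA is 2 to the power of these values, and the authors' table of group means holds its arithmetic mean and fold. The raw table holds 7 further columns that repeat the Ct of 5S rRNA, which were not used.

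The 2 groups were set against each other in limma (version 3.58.1, R 4.3.3, moderated by eBayes, two-sided), with Benjamini-Hochberg adjustment over all 103 tested miRNAs. The procedure was tested on simulated data. Ratios between miRNAs were compared by exact permutation of the samples. A Ct carries no count of molecules, so precision is that of the spread between samples. The members, marker lists, list of NF-kB linked miRNAs and rule for named miRNAs (up to 4 of that list by smallest p, the markers, and the 3 nearest patterns) were chosen with earlier results of these data known. Assays named miR-125a and miR-301 were taken as miR-125a-5p and miR-301a. No batch is given in the labels. The alternatives were other normalizations, filters, treatments of late Ct and variance models, linear values, each sample left out, and the replicate number as a block. 18S normalization and snoRNA normalization without snoRNA202 were chosen after seeing the data.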

Additional observations from a re-analysis of the deposited data

Results flagged for a closer look

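Of 16 sets of 4 non-ischemic values examined, 2 held a sample whose gap to its nearest neighbour exceeded 0.829 of the whole range, where chance gives about 1 in 20. For miR-146b minus the leukocyte mean the gap was 0.878 of the range, with non-ischemic sample 3 at 0.74 above the group mean and the others at -0.26, -0.31 and -0.18. For the log2 level of miR-223 it was 0.982 of the range, with non-ischemic sample 4 above the other 3.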

How the results depend on the processing

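The lower means of miR-146a and miR-146b kept their direction under all 20 alternatives each, and neither passed an adjusted p of 0.05 under any. Only the other normalizations could have reversed that direction. Filters, treatments of late Ct and variance models left both differences unchanged. Leaving samples out, the replicate block and linear values could not reverse groups that do not overlap against 5S rRNA. miR-146a ran from -0.93 to -0.61 with each sample left out and from -0.99 to -0.42 otherwise, with adjusted p from 0.208 to 0.717. miR-146b ran from -1.05 to -0.72 and from -1.11 to -0.44, with adjusted p from 0.159 to 0.707. miR-155 ran from -0.76 to 0.34 with each sample left out, and turned to 0.0048 after global median and to 0.13 after quantile normalization. For these the cause was not tested. The count of miRNAs called over the whole table, 0, became 1 after global median and 1 after quantile normalization, and ran from 0 to 6 with samples left out, with 6 without ischemic sample 3, all lower (5.88% of 102) and none a member. Linear values with an exact permutation test gave miR-146a -0.79, miR-146b -0.93 and miR-155 -0.12, with a lowest adjusted p over all miRNAs of 0.268. The ratio of miR-146a to miR-146b ran from -0.055 to 0.28 with samples left out (-0.055 without non-ischemic sample 4), those of miR-146a and miR-146b to miR-155 from -0.96 to -0.02 and from -1.13 to -0.17. The count of lower NF-kB linked miRNAs, 5 of 7, was 2 after global mean normalization and ran from 3 to 6 with samples left out (3 without non-ischemic sample 4 and 3 without ischemic sample 3, where 67.0% and 56.9% of all tested miRNAs were lower).

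Deviations of same-numbered samples correlated at 0.03, -0.21 and -0.07 over 76 miRNAs, and those of samples with different numbers at -0.27 to 0.28. These values cannot show whether samples with the same number belong together. With the replicate block, on replicates 1 to 3 of both groups, miR-146a was at -0.77, miR-146b at -0.72 and miR-155 at -0.23 with 0 calls over all miRNAs, and the ratio of miR-146a to miR-146b turned to -0.055.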
